A study of Homo sapiens with 6 samples.

Results

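The genes described here are the Wnt ligands, their receptors, the secreted and membrane proteins that restrain or amplify Wnt signalling, and the factors that carry the signal inside the cell. They were chosen by gene name alone: every WNT, FZD, SFRP, DKK1 to DKK4, RSPO and LGR4 to LGR6 symbol in the deposited gene table, and 19 single genes such as LRP5, APC and LEF1. WIF1, one of those 19, was not analysed here. The choice gave 58 of the 35856 genes in the table. RNA was sequenced from HCCLM3, an established human hepatocellular carcinoma cell line that the labels describe as hepatoma cells. The control group, NC, is 3 libraries of cells that received an empty vector, and the LINC00862 group is 3 libraries of cells that received a vector carrying the long non-coding RNA LINC00862, so all 6 libraries come from transfected cells. The time after transfection, and whether the sequenced cells were 1 stable line per group, are not given in the sources used here. The comparison asks which genes differ when LINC00862 is overexpressed.

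Wnt proteins are secreted, lipid-modified ligands. In the canonical branch a ligand binds a Frizzled receptor together with LRP5 or LRP6, the destruction complex built on AXIN and APC stops marking beta-catenin for degradation, and beta-catenin then acts with TCF and LEF factors on target genes. Other ligands, such as WNT5A and WNT11, are best known for beta-catenin-independent signalling through ROR and RYK receptors that controls cell movement and polarity. In the liver, Wnt signalling sets the pericentral gene programme, and mutations that activate beta-catenin are common in hepatocellular carcinoma.

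Total counts per library lay between 58241123 and 68229070. LINC00862 itself (ENSG00000203721) had counts of 11, 21 and 6 in the NC libraries and 145, 121 and 76 in the LINC00862 libraries, a log2 fold change of 3.22 (SE 0.53, adjusted p = 0.000583). Its level stayed under 1 FPKM in every library, and without NC replicate 2 the log2 fold change was 3.83. The groups differed across most of the transcriptome: edgeR's quasi-likelihood test called 64.2% of the 20741 tested genes. Marker levels were also far apart. The 7 mesenchymal markers summed to between 911.9 and 925.4 FPKM in NC and between 7.02 and 7.72 FPKM in LINC00862, and all 7 were called lower. The 9 epithelial markers summed to between 194.7 and 287.9 FPKM in NC and between 568.6 and 697.0 FPKM in LINC00862, and 8 were called higher. The hepatocyte and hepatoma markers summed to between 7.79 and 7.98 FPKM in NC and between 1800 and 2212 FPKM in LINC00862, nearly all of it from the fibrinogen genes FGA, FGB and FGG. Of its 11 tested genes, 9 were called higher and 2 lower, AFP and SERPINA1, the latter with 1.29 FPKM on average in NC and 0.0950 FPKM in LINC00862. Albumin reached at most 0.0234 FPKM in NC and between 1.21 and 1.71 FPKM in LINC00862, while AFP, GPC3, APOA1 and APOA2, which define many hepatoma cells, stayed under 0.2 FPKM in all 6 libraries. Of the 14 markers of this list in the table, 4 averaged at least 1 FPKM in NC and 5 in LINC00862, so most defining markers of the labelled cell type were low in both groups. The leukocyte list summed to between 731.6 and 819.4 FPKM in NC and between 507.5 and 636.6 FPKM in LINC00862, nearly all from the beta-globin gene HBB, and 0 of its 5 genes were called by edgeR. Of the fibroblast markers 3 of 7 were called, and of the endothelial markers 1 of 5. The part of these differences in the Wnt values was not tested, and a response to LINC00862 cannot be told apart from a difference in origin between the cells of the 2 groups. In bulk RNA, fewer cells of a type and less RNA per cell cannot be told apart either.

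Most Wnt genes that could be tested differed between the groups, and in both directions. Of the 58 genes, 45 passed the filter on low counts, and 13 did not. Among the 45, 37 (82.2%) had an adjusted p under 0.05, against 64.2% of all tested genes. Of these, 21 (46.7%) were higher in LINC00862, against 34.4% of all tested genes, and 16 (35.6%) were lower, against 29.8%. An adjusted p under 0.05 together with at least a 2-fold difference was reached by 33 (73.3%), 19 higher and 14 lower, against 49.8% of all tested genes. The FPKM of the NC libraries did not overlap that of the LINC00862 libraries for 38 of the 45 (84.4%), against 71.1% of all tested genes. The median log2 fold change was 0.27, against 0.11 over all tested genes, and the median size of the log2 fold change regardless of sign was 2.92, against 1.16. Both medians stay the same with WNT1 and FZD10, whose NC libraries are all at 0, set at their lower bounds. These counts are a description only. In 7 of the 45, no library of 1 group was above the filter's cut, so they had to differ. WNT1, WNT8B, FZD10, NKD1, NKD2 and RSPO3 passed through LINC00862 alone, and SFRP2 through NC alone. WNT11, WNT16 and FZD9 would not have passed on their NC libraries alone, nor WNT5A and WNT5B on their LINC00862 libraries alone. The filter bears on their calls as well.

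A mean of at least 1 FPKM was reached by 25 of the 58 genes in NC and by 20 in LINC00862. Of these, 12 reached it in both groups, 13 in NC alone and 8 in LINC00862 alone. Missing this limit does not mean absence: ROR1 (1.098 FPKM in NC and 0.693 FPKM in LINC00862) and WNT9A (1.08 and 0.562 FPKM) are counted in NC alone and were not called.

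**Figure D1:**
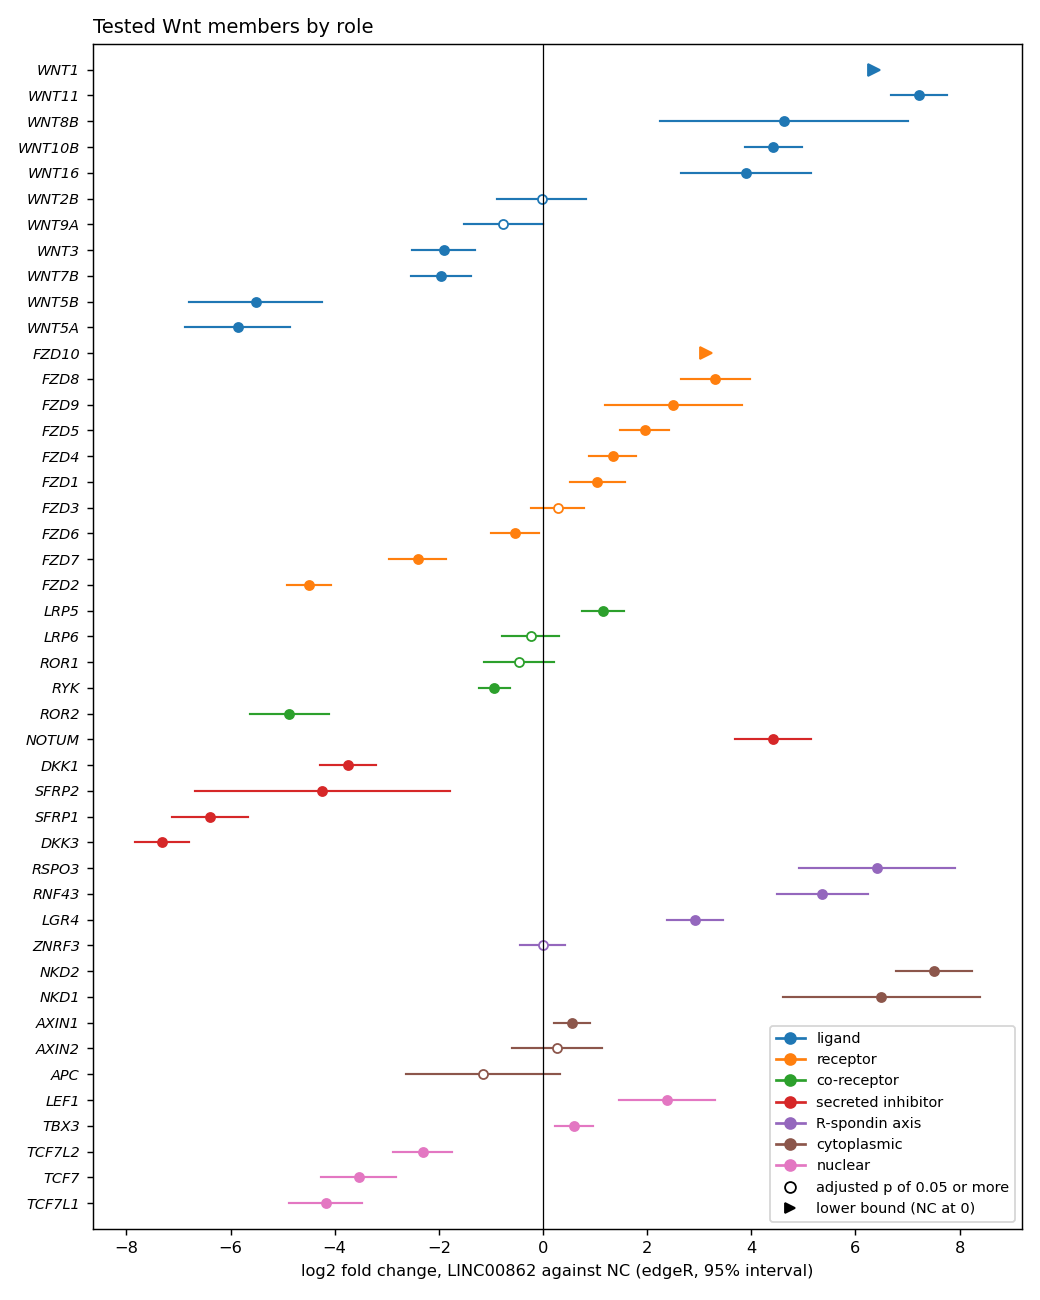
Log2 fold change of each of the 45 tested Wnt genes (x axis, LINC00862 against NC) with its 95% interval, grouped by role in colour. Filled points have an adjusted p under 0.05, open points do not, and the arrowheads of WNT1 and FZD10 mark lower bounds because all 3 NC libraries are at 0. Higher and lower genes stand in most roles, while the R-spondin axis and the cytoplasmic genes have 0 called lower. Of their higher genes, RSPO3, NKD1 and NKD2 passed the filter through LINC00862 alone.

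Of 18 WNT genes, 11 could be tested, 5 were higher in LINC00862 and 4 were lower. This and the counts for the other roles are descriptions, to be read beside the shares over all tested genes given before. Among the called ligands, only WNT10B, WNT7B and WNT3 would have passed the filter on either group alone. WNT10B, WNT11 and WNT1 carried the ligand RNA in LINC00862, and WNT5A, WNT5B, WNT7B and WNT3 most of it in NC.

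WNT10B (ENSG00000169884), a ligand known for activating beta-catenin and for holding back fat cell formation, had 0.541, 0.646 and 0.375 FPKM in the NC libraries and 10.99, 10.8 and 8.32 FPKM in the LINC00862 libraries. Its log2 fold change was 4.42 (SE 0.24, adjusted p = 6.895e-07), or 21.5-fold. WNT1 (ENSG00000125084), the founding member of the family and a strong activator of beta-catenin, had 0 counts in every NC library and 1121, 891 and 763 counts in the LINC00862 libraries, or 6.05, 5.57 and 4.70 FPKM. Low counts in the table tend to come in steps of 4, so that 1 read pair appears to add 4 counts, and 3 read pairs, or 12 counts per library, were taken as the limit that a count of 0 allows. Against that limit WNT1 was at least 81.6-fold higher in LINC00862. The limit covers counting error only. Both genes sit side by side on chromosome 12 in the coordinates of the deposited table (hg38), WNT10B at 48965340 to 48971735 on the minus strand and WNT1 at 48978322 to 48982620 on the plus strand, with 6586 bases between them. They are transcribed away from each other.

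WNT11 (ENSG00000085741), a ligand of the beta-catenin-independent branch, had 0.0721, 0.0507 and 0.0682 FPKM in NC and 9.11, 9.14 and 8.17 FPKM in LINC00862, a log2 fold change of 7.22 (SE 0.24, adjusted p = 5.371e-08). The NC values rest on 12, 8 and 11 counts. WNT11 was thus near the limit of detection in every NC library and next to WNT10B in level in LINC00862. WNT16 and WNT8B were also called higher but stayed low. WNT16, a ligand known from bone, averaged 0.0292 FPKM in NC and 0.403 FPKM in LINC00862 (log2 fold change 3.90, adjusted p = 2.449e-04), and without NC replicate 1 the log2 fold change was 4.55. WNT8B had counts of 3, 0 and 0 in NC and 27, 39 and 12 in LINC00862 (adjusted p = 0.003864), too few in NC for a fold.

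WNT5A and WNT5B are paralogs known for beta-catenin-independent signalling in cell movement, and both nearly disappeared. WNT5A (ENSG00000114251) had 3.41, 1.97 and 1.91 FPKM in NC and 0.0149, 0.0378 and 0.0509 FPKM in LINC00862, a log2 fold change of -5.87 (SE 0.44, adjusted p = 5.095e-06). WNT5B (ENSG00000111186) had 1.38, 2.49 and 3.22 FPKM in NC and 0.0688, 0.0524 and 0.0140 FPKM in LINC00862, a log2 fold change of -5.52 (SE 0.56, adjusted p = 3.212e-05). In each case the lowest NC library was far above the highest LINC00862 library. FBXL14 overlaps WNT5B on the opposite strand, and whether counting used the strand is not stated.

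WNT7B and WNT3, which can act through beta-catenin, fell by less. WNT7B had 2.42, 1.96 and 2.88 FPKM in NC and 0.567, 0.691 and 0.413 FPKM in LINC00862, a log2 fold change of -1.96 (SE 0.25, adjusted p = 1.386e-04). WNT3 had 1.46, 1.69 and 1.53 FPKM in NC and 0.340, 0.480 and 0.290 FPKM in LINC00862, a log2 fold change of -1.91 (SE 0.27, adjusted p = 2.344e-04). Neither gene overlapped between the groups. WNT9A had 1.24, 0.693 and 1.32 FPKM in NC and 0.716, 0.442 and 0.527 FPKM in LINC00862. Its groups overlapped, and its log2 fold change of -0.76 (95% interval -1.52 to -0.0096) missed the threshold with an adjusted p of 0.0709, which passed under 4 of the alternatives, among them the fit without NC replicate 2 (-0.99, adjusted p = 0.0272). WNT2B was low in both groups, and its log2 fold change of -0.02 had a 95% interval from -0.88 to 0.83. The 7 ligands below the filter were WNT2, WNT3A, WNT4, WNT6, WNT7A, WNT9B and WNT10A, each with at most 23 counts in any library.

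**Figure D2:**
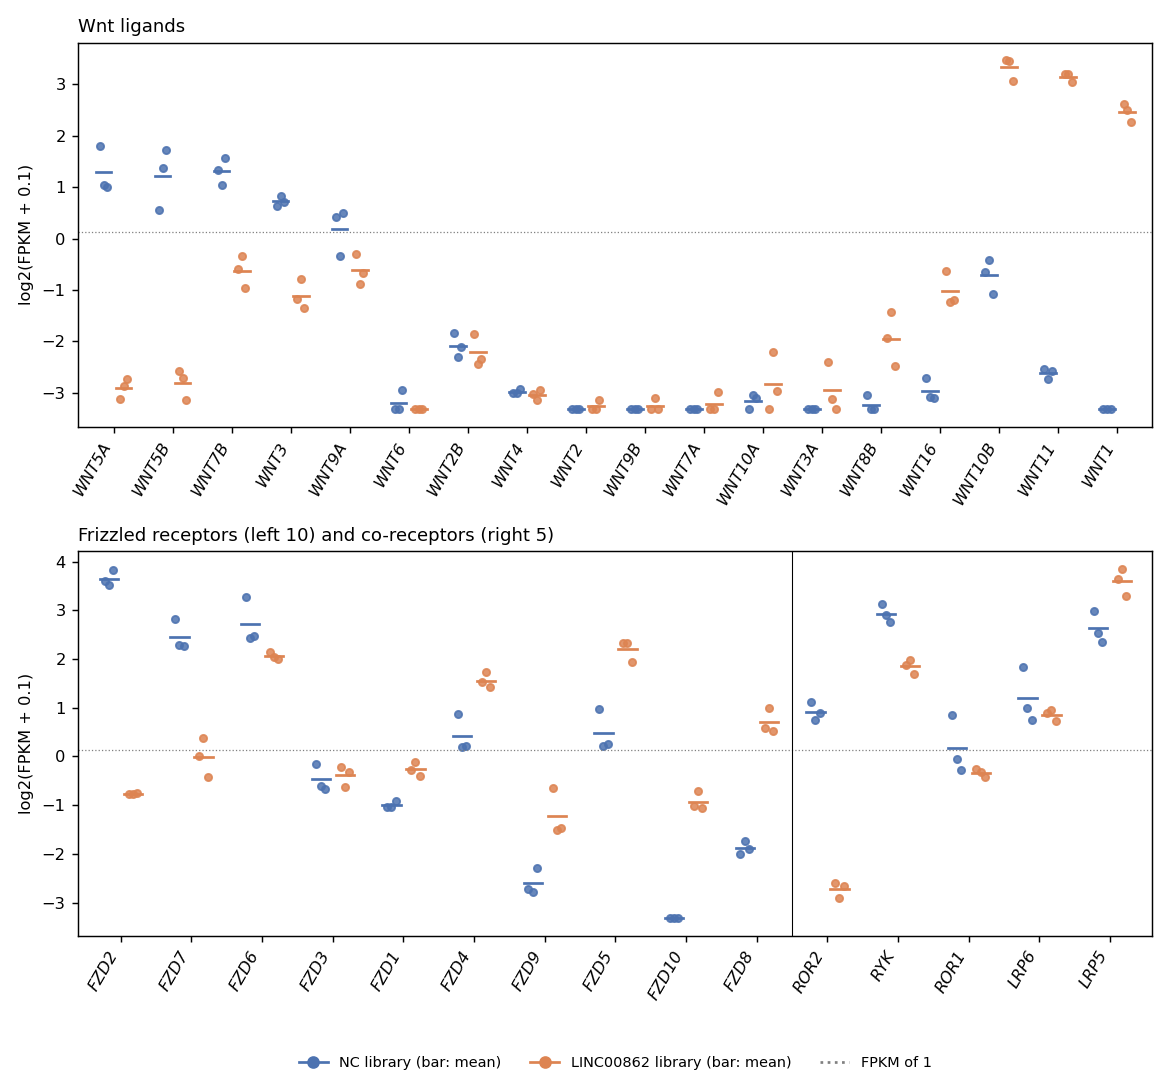
Level of every WNT gene (top) and of the FZD receptors and co-receptors (bottom) in each library, as log2(FPKM + 0.1), ordered within each group of genes by the difference between the groups. NC libraries are blue, LINC00862 libraries orange, short bars are means, and the dotted line is 1 FPKM; WNT10B, WNT11 and WNT1 stand above it in LINC00862 alone, and FZD2 stands above it in NC alone.

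Summed over the family, the ligands came to 10.8, 9.66 and 11.5 FPKM in the NC libraries and 28.9, 28.1 and 23.1 FPKM in the LINC00862 libraries. FPKM sums, here and for receptors and markers, leave out the TMM scaling used in the tests. Its factors were 1.02 to 1.13 in NC and 0.89 to 0.99 in LINC00862. The leading genes of that sum were not those of the other group. In NC it was spread over several genes, with WNT5A on average at 22.9%, WNT7B at 22.6%, WNT5B at 22.1%, WNT3 at 14.8%, WNT9A at 10.03% and WNT10B at 4.99%. In LINC00862 it was held by WNT10B at 37.6%, WNT11 at 33.2% and WNT1 at 20.4%. The SD over the 3 libraries of these LINC00862 shares was 1.34, 1.97 and 0.576 percentage points. WNT5A took 16.6 to 31.6% of the ligand sum in NC and at most 0.22% in LINC00862.

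**Figure D3:**
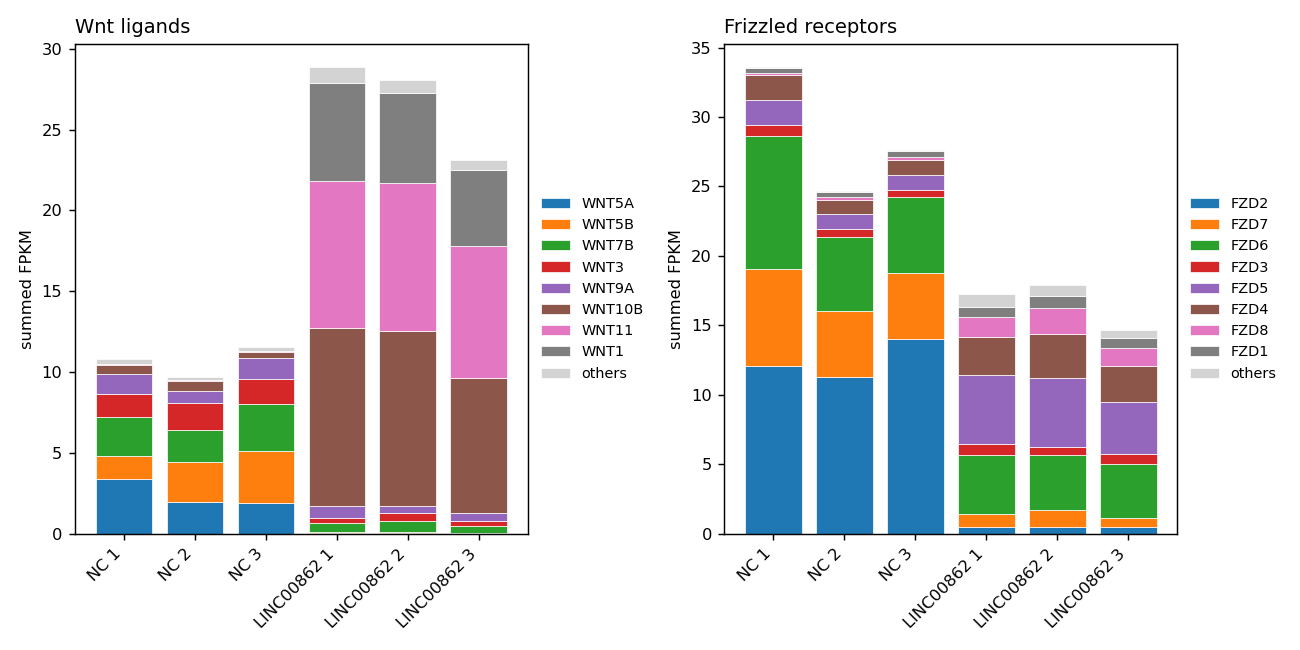
Summed FPKM of the WNT ligands (left) and the FZD receptors (right) in each of the 6 libraries, with each coloured segment 1 gene and the grey segment the remaining genes of the family. The ligand sum is 9.66 to 11.5 FPKM in NC and 23.1 to 28.9 FPKM in LINC00862, and the receptor sum is 24.7 to 33.6 FPKM in NC and 14.7 to 17.9 FPKM in LINC00862.

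All 10 Frizzled genes, the cell surface receptors for Wnt proteins, could be tested, and 6 were higher and 3 lower in LINC00862. The 2 that fell most were also leading receptors of the NC cells. FZD2 (ENSG00000180340), a receptor for WNT5A among others, had 12.1, 11.3 and 14.1 FPKM in NC and 0.483, 0.488 and 0.496 FPKM in LINC00862, a log2 fold change of -4.50 (SE 0.18, adjusted p = 1.545e-07), or 22.6-fold lower. FZD7 (ENSG00000155760), its close paralog, had 6.99, 4.77 and 4.75 FPKM in NC and 0.910, 1.197 and 0.646 FPKM in LINC00862, a log2 fold change of -2.41 (SE 0.24, adjusted p = 2.701e-05). Neither gene overlapped between the groups, and the LINC00862 libraries of FZD2 were nearly equal.

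FZD6, often placed in the beta-catenin-independent branch, had 9.54, 5.29 and 5.44 FPKM in NC and 4.29, 3.996 and 3.90 FPKM in LINC00862. NC replicate 1 stood above the other NC libraries. The call for FZD6 was fragile: its log2 fold change of -0.54 (SE 0.21, adjusted p = 0.0444) lost significance without NC replicate 1 (-0.27, adjusted p = 0.0865), without each of the 3 LINC00862 libraries, with upper quartile scaling (-0.32), with a replicate block (-0.50, adjusted p = 0.0662) and in DESeq2.

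FZD5, FZD4 and FZD8 were called higher and averaged at least 1 FPKM in LINC00862. FZD5 (ENSG00000163251), a receptor known for beta-catenin signalling in the gut and eye, had 1.85, 1.07 and 1.09 FPKM in NC and 4.94, 4.95 and 3.76 FPKM in LINC00862, a log2 fold change of 1.95 (SE 0.21, adjusted p = 4.281e-05). FZD8, its nearest relative, had 0.148, 0.199 and 0.168 FPKM in NC and 1.41, 1.895 and 1.33 FPKM in LINC00862, a log2 fold change of 3.31 (SE 0.29, adjusted p = 1.29e-05). FZD4, also the receptor of the vessel ligand Norrin, had 1.73, 1.04 and 1.07 FPKM in NC and 2.77, 3.21 and 2.57 FPKM in LINC00862, a log2 fold change of 1.34 (SE 0.20, adjusted p = 3.334e-04). The groups did not overlap for any of these 3 genes. PRSS23, which overlaps FZD4 on the opposite strand, moved the other way, from between 14514 and 18311 counts in NC to between 320 and 425 in LINC00862.

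FZD1, FZD9 and FZD10 were called higher and averaged under 1 FPKM in both groups. FZD9 and FZD10 would not have passed the filter on their NC libraries alone. The log2 fold change of FZD1 was 1.04 (adjusted p = 0.00372) and that of FZD9 was 2.50 (adjusted p = 0.004467). FZD10 had 0 counts in every NC library and 99, 112 and 85 counts in LINC00862, at least 8.78-fold higher against the limit of 12 counts per library. FZD3 was not called, at a log2 fold change of 0.28 (95% interval -0.24 to 0.80). As a share of the receptor sum, FZD2 held 44.2% in NC and 2.97% in LINC00862, while FZD5 held 4.603% in NC and 27.3% in LINC00862. FZD6 held 23.2 and 24.6%, so it was a leading receptor in both groups.

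Of the 5 co-receptors, LRP5 was called higher, ROR2 and RYK were called lower, and LRP6 and ROR1 were not called. LRP5, the partner of Frizzled in canonical signalling, had 7.87, 5.70 and 5.01 FPKM in NC and 12.4, 14.3 and 9.77 FPKM in LINC00862, a log2 fold change of 1.15 (SE 0.17, adjusted p = 3.743e-04). Its paralog LRP6 had 3.49, 1.88 and 1.59 FPKM in NC and 1.77, 1.83 and 1.55 FPKM in LINC00862, with a log2 fold change of -0.24 and a 95% interval from -0.78 to 0.31. The groups overlapped for LRP6 and not for LRP5.

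ROR2 (ENSG00000169071), the receptor tyrosine kinase through which WNT5A is best known to act, had 2.07, 1.58 and 1.77 FPKM in NC and 0.0648, 0.0326 and 0.0583 FPKM in LINC00862, a log2 fold change of -4.88 (SE 0.33, adjusted p = 2.83e-06). RYK, another kinase-related Wnt receptor, had 8.67, 7.37 and 6.72 FPKM in NC and 3.56, 3.85 and 3.13 FPKM in LINC00862, a log2 fold change of -0.93 (SE 0.13, adjusted p = 2.62e-04). ROR1 had 1.71, 0.860 and 0.727 FPKM in NC and 0.732, 0.700 and 0.648 FPKM in LINC00862, with a log2 fold change of -0.46 and a 95% interval from -1.14 to 0.22. NC replicate 1 of ROR1 stood above the other libraries, and the groups overlapped.

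Of the 7 secreted inhibitors, 5 could be tested, and 4 were lower and 1 higher in LINC00862, against 29.8% lower and 34.4% higher among all tested genes. SFRP2, 1 of the 4, passed the filter through NC alone. DKK3 (ENSG00000050165), a member of the Dickkopf family whose effect on Wnt signalling varies, had 21.2, 17.8 and 16.8 FPKM in NC and 0.0782, 0.110 and 0.113 FPKM in LINC00862, a log2 fold change of -7.32 (SE 0.23, adjusted p = 4.1e-08), or 160.1-fold lower. DKK1 (ENSG00000107984), which blocks LRP5 and LRP6 and is itself a target of beta-catenin, had 19.6, 20.4 and 17.4 FPKM in NC and 1.44, 0.901 and 1.40 FPKM in LINC00862, a log2 fold change of -3.75 (SE 0.23, adjusted p = 1.621e-06). SFRP1, a decoy receptor that binds Wnt proteins, had 5.57, 3.69 and 3.14 FPKM in NC and 0.0321, 0.0567 and 0.0361 FPKM in LINC00862, a log2 fold change of -6.40 (SE 0.32, adjusted p = 4.453e-07). For all 3 genes the lowest NC library was many times above the highest LINC00862 library.

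SFRP2, another decoy, was low in both groups, with counts of 13, 34 and 36 in NC and 4, 0 and 0 in LINC00862 (adjusted p = 0.00715). NOTUM (ENSG00000185269), an enzyme that removes the lipid from Wnt proteins and a feedback target of the pathway, went the opposite way to the other inhibitors. It had 0.134, 0.0674 and 0.101 FPKM in NC and 1.77, 2.30 and 1.79 FPKM in LINC00862, a log2 fold change of 4.41 (SE 0.32, adjusted p = 4.112e-06). SFRP4 and SFRP5 had at most 7 counts in any library and were not tested. USP47 overlaps DKK3 on the opposite strand and had between 2004 and 3557 counts in NC and between 2559 and 3277 in LINC00862.

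**Figure D4:**
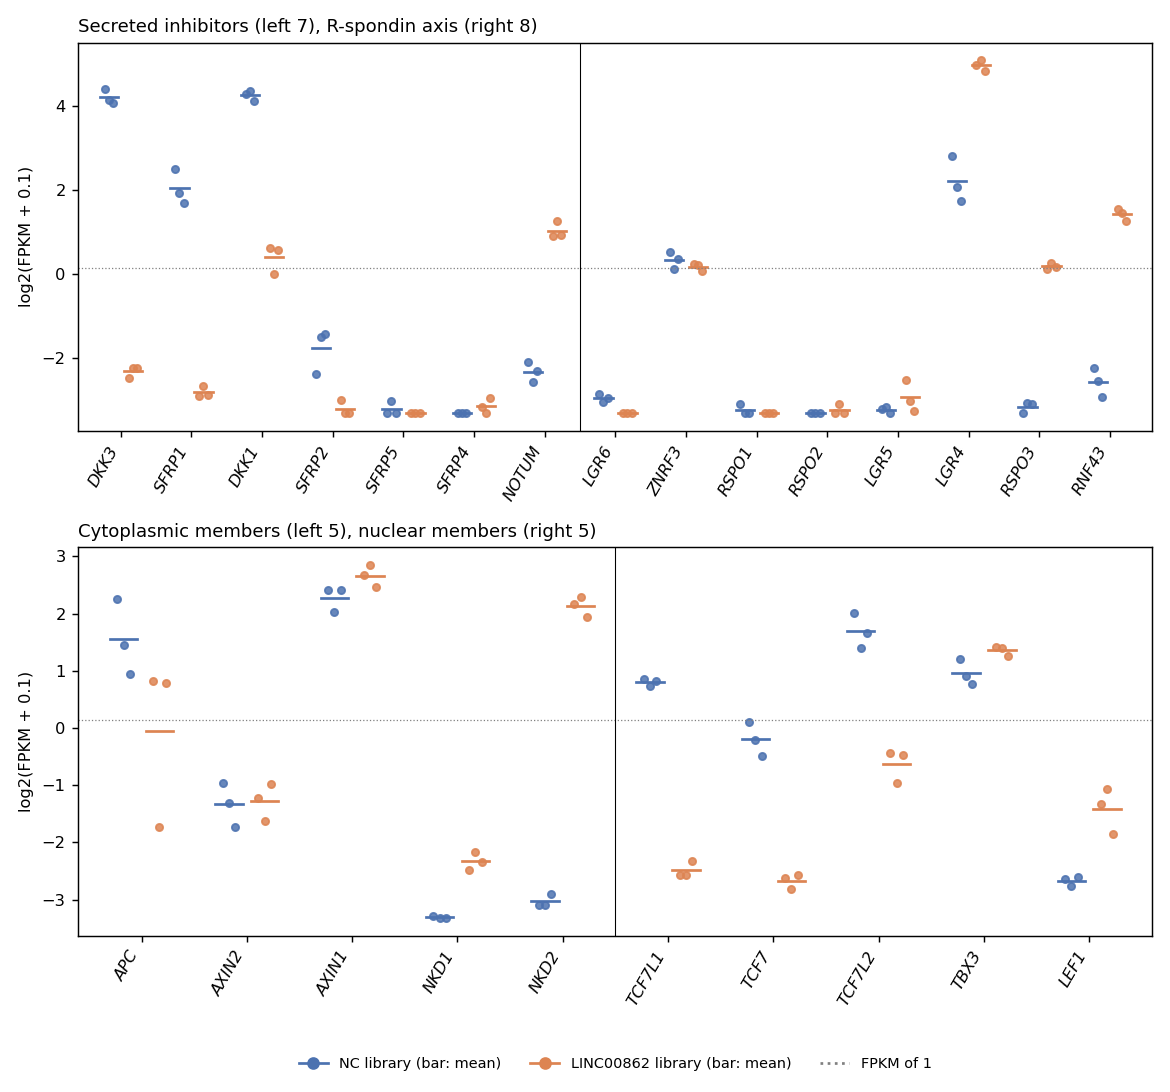
Level of the secreted inhibitors and R-spondin axis (top) and of the cytoplasmic and nuclear members (bottom) in each library, as log2(FPKM + 0.1), with NC in blue, LINC00862 in orange, short bars for means and a dotted line at 1 FPKM. DKK3, DKK1 and SFRP1 are high in NC, NOTUM, LGR4, RSPO3, RNF43 and NKD2 are high in LINC00862, and APC shows 1 LINC00862 library apart from the other libraries.

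The R-spondin axis sets how much receptor stays on the cell surface: the ligases RNF43 and ZNRF3 remove Frizzled receptors, and R-spondins bound to LGR receptors take those ligases away. Of its 8 genes, 4 could be tested, and 3 were higher and 0 lower in LINC00862. Among all tested genes, 34.4% were higher and 29.8% lower. RSPO3, among the higher genes, passed the filter through LINC00862 alone. LGR4 (ENSG00000205213), a receptor for R-spondins, had 6.92, 4.13 and 3.23 FPKM in NC and 31.6, 34.1 and 28.7 FPKM in LINC00862, a log2 fold change of 2.92 (SE 0.24, adjusted p = 8.028e-06). RNF43 (ENSG00000108375) had 0.110, 0.0716 and 0.0299 FPKM in NC and 2.84, 2.62 and 2.31 FPKM in LINC00862, a log2 fold change of 5.36 (SE 0.39, adjusted p = 3.777e-06). RSPO3, the R-spondin made by endothelial cells around the central vein of the liver, had counts of 0, 7 and 6 in NC and 378, 363 and 340 in LINC00862. Its log2 fold change was 6.42 (SE 0.66, adjusted p = 3.444e-05), and 5.81 without NC replicate 1, with every NC library under the limit of 12 counts. Each of the 3 genes stood higher in every LINC00862 library than in any NC library.

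ZNRF3, the paralog of RNF43, was not called, with 1.34, 0.989 and 1.18 FPKM in NC and 1.08, 1.06 and 0.948 FPKM in LINC00862. Its log2 fold change was -0.0043 with a 95% interval from -0.44 to 0.43. LGR5, the stem cell marker and feedback target, had counts of 3, 4 and 0 in NC and 30, 8 and 2 in LINC00862 and was not tested, and TSPAN8, which overlaps it on the opposite strand, had between 15980 and 20346 counts in LINC00862. LGR6 had counts of 12, 6 and 10 in NC and 0 in each LINC00862 library. RSPO1 and RSPO2 had at most 5 counts in any library. LGR4 was thus the receptor of this family with RNA above 1 FPKM in both groups.

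Of the 5 cytoplasmic members, 3 were called higher and 0 lower, against 34.4% higher and 29.8% lower among all tested genes. NKD1 and NKD2, both among the higher, passed the filter through LINC00862 alone. NKD2 (ENSG00000145506), which binds Dishevelled and dampens the signal, had 4, 4 and 7 counts in NC and 980, 929 and 731 in LINC00862, or 0.0178, 0.0165 and 0.0337 FPKM against 4.39, 4.82 and 3.73 FPKM. The log2 fold change was 7.51 (SE 0.32, adjusted p = 2.003e-07), and its size is uncertain because each NC library was under the limit of 12 counts. Its paralog NKD1, a feedback target of beta-catenin, was called higher too (adjusted p = 1.386e-04), from counts of 4, 0 and 0 in NC to 106, 142 and 114 in LINC00862, though it averaged only 0.0998 FPKM there. AXIN1, the scaffold of the destruction complex, had 5.20, 3.97 and 5.20 FPKM in NC and 6.25, 7.10 and 5.45 FPKM in LINC00862. Its log2 fold change was 0.56 (SE 0.15, adjusted p = 0.0104), and this call was lost without LINC00862 replicate 2 (0.50, adjusted p = 0.0537), when scaled by library size only (0.40, adjusted p = 0.0741) and in both limma fits.

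AXIN2, the scaffold that beta-catenin itself induces and the most used readout of the canonical branch, was not called. It had 0.415, 0.301 and 0.202 FPKM in NC and 0.331, 0.225 and 0.404 FPKM in LINC00862, so the groups were interleaved. The log2 fold change was 0.27 with a 95% interval from -0.59 to 1.14. APC, the other scaffold of the destruction complex, had 4.69, 2.62 and 1.83 FPKM in NC and 1.66, 0.2003 and 1.62 FPKM in LINC00862. Every LINC00862 library of APC was below the lowest NC library, but the gene was not called. LINC00862 replicate 2 had 166 counts of APC, against 1584 and 1353 in the other libraries of its group. With it, the log2 fold change was -1.16 (95% interval -2.63 to 0.32, adjusted p = 0.148), and over the fits that each left out 1 library it ran from -1.53 to -0.65.

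All 5 nuclear members were called, 2 higher and 3 lower. The factors that fell were 3 of the 4 DNA-binding partners of beta-catenin. TCF7L2 (ENSG00000148737), the main one in epithelial and liver cells, had 3.95, 2.52 and 3.05 FPKM in NC and 0.634, 0.411 and 0.621 FPKM in LINC00862, a log2 fold change of -2.31 (SE 0.25, adjusted p = 4.684e-05). TCF7L1, which mostly represses, had 1.70, 1.56 and 1.68 FPKM in NC and 0.0681, 0.0678 and 0.0997 FPKM in LINC00862, a log2 fold change of -4.18 (SE 0.31, adjusted p = 4.596e-06). TCF7 had 0.982, 0.765 and 0.616 FPKM in NC and 0.0633, 0.0422 and 0.0680 FPKM in LINC00862, a log2 fold change of -3.54 (SE 0.32, adjusted p = 1.562e-05). No library of LINC00862 reached the lowest NC library for any of the 3 genes.

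LEF1, the fourth of these factors, was called higher but from a low level, with 0.0595, 0.0469 and 0.0647 FPKM in NC and 0.299, 0.378 and 0.175 FPKM in LINC00862. Its log2 fold change was 2.39 (SE 0.41, adjusted p = 7.849e-04). TBX3, a T-box factor induced by beta-catenin in liver tumours, had 2.20, 1.77 and 1.61 FPKM in NC and 2.57, 2.55 and 2.30 FPKM in LINC00862. The log2 fold change of TBX3 was 0.59 (SE 0.16, adjusted p = 0.0105), and its adjusted p rose to between 0.0729 and 0.0836 when scaled by library size only and in both limma fits. TCF7 shares part of its locus with SKP1 on the opposite strand, which had between 17319 and 20170 counts in NC and between 6335 and 8917 in LINC00862.

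Taken by what beta-catenin is known to induce, 10 of the 58 genes are feedback targets of the pathway, and they did not share a direction. Of the 9 that could be tested, RNF43, NKD1, NOTUM, LEF1 and TBX3 were higher, DKK1 and TCF7 were lower, and AXIN2 and ZNRF3 were not called. Among all tested genes, 34.4% were higher and 29.8% lower. NKD1 passed the filter through LINC00862 alone. The median log2 fold change of the 9 was 0.59, the value of TBX3, against 0.11 over all tested genes. It is a description only. The promoters of 4 of the called targets are shown here because they place the letters that TCF and LEF factors bind beside these opposite directions. No promoter was matched for NKD1, NOTUM or TBX3. The sequences are the 250 bases before the transcript start that RefSeq gives (GRCh38.p14), read 5′ to 3′ on the strand of the gene, with capitals for the letters CTTTG followed by AT, AA, TT or TA, searched on both strands. DKK1 is chr10:52314031-52314280 on the plus strand, TCF7 is chr5:134115363-134115612 on the plus strand, RNF43 is chr17:58417535-58417784 on the minus strand and LEF1 is chr4:108166302-108166551 on the minus strand.
DKK1: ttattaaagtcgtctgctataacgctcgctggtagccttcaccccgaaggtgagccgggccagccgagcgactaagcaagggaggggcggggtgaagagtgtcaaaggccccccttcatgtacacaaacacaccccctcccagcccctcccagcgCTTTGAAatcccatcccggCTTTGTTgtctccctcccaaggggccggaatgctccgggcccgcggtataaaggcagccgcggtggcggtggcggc
TCF7: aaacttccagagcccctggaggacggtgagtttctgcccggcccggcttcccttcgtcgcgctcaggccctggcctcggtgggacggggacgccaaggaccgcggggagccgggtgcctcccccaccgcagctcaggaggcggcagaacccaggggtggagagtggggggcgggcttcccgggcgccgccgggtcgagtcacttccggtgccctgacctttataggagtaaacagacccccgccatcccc
RNF43: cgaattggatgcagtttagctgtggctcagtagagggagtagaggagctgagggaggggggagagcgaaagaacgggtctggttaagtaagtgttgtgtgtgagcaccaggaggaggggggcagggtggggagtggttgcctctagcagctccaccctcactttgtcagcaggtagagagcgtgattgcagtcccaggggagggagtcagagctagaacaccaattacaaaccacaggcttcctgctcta
LEF1: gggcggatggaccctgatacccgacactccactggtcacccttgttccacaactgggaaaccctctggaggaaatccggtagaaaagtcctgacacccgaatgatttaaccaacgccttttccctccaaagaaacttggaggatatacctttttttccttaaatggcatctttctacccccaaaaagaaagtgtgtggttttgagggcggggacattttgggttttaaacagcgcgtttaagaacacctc
The DKK1 promoter held CTTTGAA with its first base 95 bases before the start and CTTTGTT 76 bases before it, and these letters were not in the other 3 windows. RefSeq promoters were matched for 40 of the 58 genes, and only the first listed promoter of each gene was searched. Some genes, TCF7 and RNF43 among them, had 2 listed promoters, and the other was not searched. DKK1 was the 1 gene with a match. A match was found in 12.0% of 35116 RefSeq promoters of the same length, counted per promoter and not per gene. A match is a description of the letters in this window, which leaves out more distant elements. By the deposited coordinates, TCF7 begins at 134114681 on the plus strand and LEF1 at 108168956 on the minus strand. The windows of these 2 genes thus lie inside the gene, at a start other than the outermost one.

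The other listed genes of the pathway were called in both directions, more often lower. This list too was chosen with earlier results of these data known, so nothing particular to the pathway is read from its counts. From a list of 67 symbols of further pathway genes, in which TRABD2A also stands under an alias, 63 were in the table and all 63 were tested. Of these, 38 (60.3%) were called, against 64.2% of all tested genes, so the share called was near the background. By direction, 9 (14.3%) were higher, against 34.4%, and 29 (46.0%) lower, against 29.8%. DACT1 and DACT3, among the lower, passed the filter through NC alone. VANGL2, also lower, would not have passed on its LINC00862 libraries alone, nor ANKRD6 and PLCB1, called higher, on their NC libraries alone. The median log2 fold change was -0.54. With at least a 2-fold difference required, 25 remained called, 6 higher and 19 lower.

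CTNNB1, beta-catenin itself, had 19.4, 14.1 and 13.7 FPKM in NC and 5.40, 6.89 and 3.75 FPKM in LINC00862, a log2 fold change of -1.39 (SE 0.20, adjusted p = 2.795e-04). Its paralog JUP, or plakoglobin, a junction protein, had 3.42, 3.48 and 5.23 FPKM in NC and 23.6, 25.7 and 19.8 FPKM in LINC00862, a log2 fold change of 2.67 (SE 0.22, adjusted p = 8.069e-06). The 2 catenins thus moved apart without overlap. Among genes with a mean of at least 1 FPKM in a group, others called higher included ANKRD6, a Dishevelled-binding protein with 5, 10 and 12 counts in NC, at 6.18, the corepressor TLE2 at 1.64, the beta-catenin coactivator PYGO2 at 1.295 and CBY1, which binds beta-catenin, at 0.90 on the log2 scale. PLCB1 (a log2 fold change of 7.27, from 12, 0 and 0 counts in NC) and APCDD1 (2.92) were called higher as well, with means under 1 FPKM in both groups.

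Of the genes on that list with a mean of at least 1 FPKM in a group, 5 with the largest falls are given here. PTK7, a pseudokinase receptor of planar cell polarity, had 12.96, 10.95 and 11.6 FPKM in NC and 0.0621, 0.0657 and 0.0524 FPKM in LINC00862, a log2 fold change of -7.41 (SE 0.17, adjusted p = 2.632e-08). DACT1, a Dishevelled-binding protein, averaged 1.39 FPKM in NC and was at 0 in every LINC00862 library, at least 32.6-fold lower against the limit of 12 counts. The log2 fold change was -5.38 for TRABD2A, a membrane protease that cuts Wnt ligands, -4.82 for the polarity gene PRICKLE1 and -3.28 for the cadherin CELSR3. PORCN, which adds the lipid to Wnt proteins, and WLS, which carries them to the surface, were named after their values were seen. PORCN averaged 4.52 FPKM in NC and 1.23 FPKM in LINC00862 (log2 fold change -1.71), and WLS 15.1 and 5.00 FPKM (-1.42).

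Wnt target genes outside the 58 were called in both directions. Of 47 genes on 2 lists, 37 were tested and 36 were called, 19 higher and 17 lower, against 64.2% of all tested genes called, 34.4% higher and 29.8% lower. These lists were chosen with earlier results of these data known, so nothing particular to them is read from the counts. The liver list holds genes that Wnt signalling regulates in hepatocytes or liver tumours. Of its 13 tested genes, 10 (76.9%) were higher and 3 (23.1%) lower. Their median log2 fold change was 3.60, or 3.28 with the genes at 0 in NC set at their lower bounds. REG1A, REG3A and SLC13A3, all higher, had at most 5 counts in any NC library and passed the filter through LINC00862 alone. The general list holds targets known from other tissues. Of its 24 tested genes, 9 (37.5%) were higher and 14 (58.3%) lower, with a median of -1.34. FGF9 and MMP7 passed the filter through LINC00862 alone, and ISL1 and TWIST1 through NC alone.

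Most genes on the liver list are pericentral or induced by beta-catenin, but CPS1 and HAL, both called higher, are periportal genes that beta-catenin is known to hold down. CPS1, the entry enzyme of the urea cycle, had the largest log2 fold change on the list apart from the genes at 0 in NC, with 1.49, 1.34 and 1.07 FPKM in NC and 306.3, 338.4 and 270.1 FPKM in LINC00862, a log2 fold change of 8.04 (SE 0.22, adjusted p = 2.95e-08). The glutamate transporter SLC1A2, a pericentral gene, rose by 7.38, the histidine-degrading enzyme HAL by 6.22 from 4, 9 and 13 counts in NC, and the receptor TNFRSF19 by 3.60 on the log2 scale. REG3A, a secreted lectin, was at 0 in NC and averaged 3.05 FPKM in LINC00862, at least 30.0-fold higher. Among those that fell, the log2 fold change was -5.83 for the ephrin receptor EPHB2 and -1.56 for the pericentral enzyme OAT. Glutamine synthetase GLUL, the classic pericentral target and named after its values were seen, had 1.28, 1.24 and 1.17 FPKM in NC and 5.94, 5.72 and 5.00 FPKM in LINC00862, a log2 fold change of 2.35 (SE 0.13, adjusted p = 9.763e-07). CYP2E1, the other much used pericentral marker, had at most 0.0063 FPKM in any library.

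Among general targets, the matrix protease MMP7 rose by 7.13 from 4, 4 and 7 counts in NC, ID2 by 3.71, the cyclin CCND1 by 2.40 and VEGFA by 2.32 on the log2 scale. CCND1 went from between 12.5 and 17.3 FPKM in NC to between 55.8 and 80.5 FPKM in LINC00862. GREM1, FOSL1 and SNAI2 had log2 fold changes of -5.04, -4.98 and -4.88. ISL1 and TWIST1 were also called lower, with counts of 493, 404 and 365 against 4, 0 and 0 for ISL1 and 627, 732 and 806 against 0, 8 and 0 for TWIST1, too few in LINC00862 for a fold. TWIST1 and SNAI2 are regulators of the mesenchymal state, whose markers were lower in LINC00862 too. MYC, named after its values were seen, had 115.9, 107.7 and 105.0 FPKM in NC and 41.5, 43.1 and 41.2 FPKM in LINC00862, a log2 fold change of -1.21 (SE 0.13, adjusted p = 4.927e-05). CCND1 and MYC, the best known targets of the list, thus went opposite ways.

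**Figure D5:**
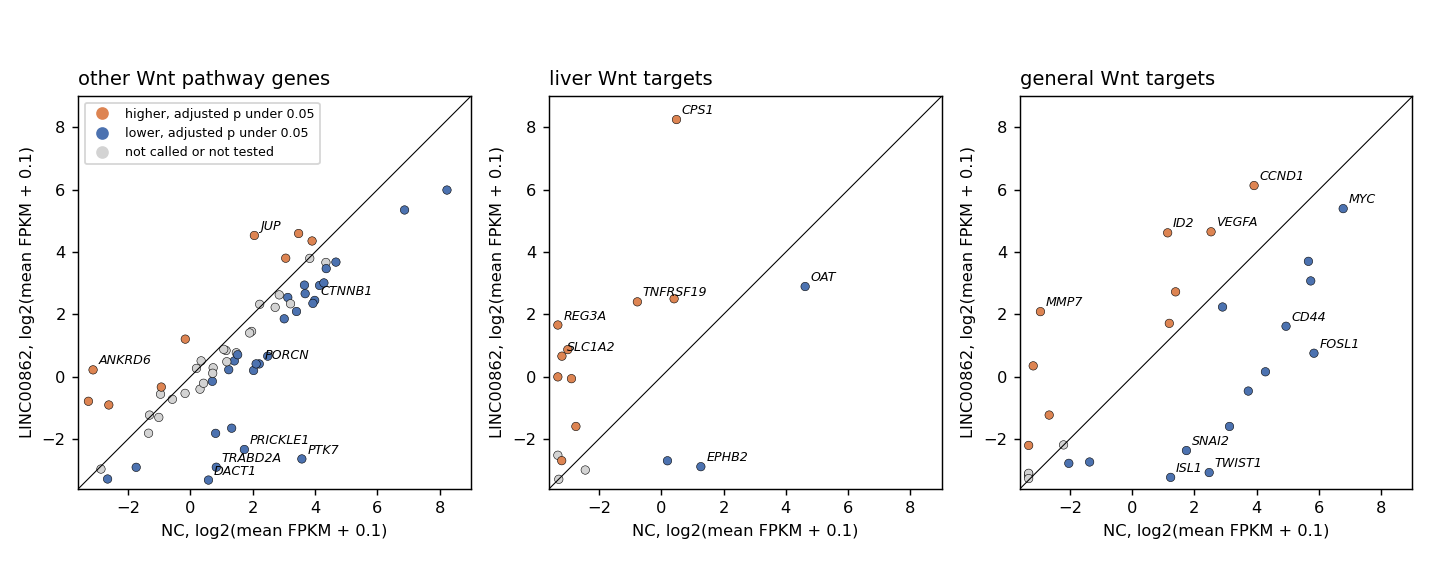
Mean level of each gene in LINC00862 (y axis) against NC (x axis), both as log2(mean FPKM + 0.1), for the other pathway genes, the liver targets and the general targets. Orange points were called higher, blue points lower and grey points were not called or not tested, and the diagonal marks equal levels. The pathway genes lie mostly on or under the diagonal, while 10 of the 13 tested liver targets are called above it. Of those 10, REG1A, REG3A and SLC13A3 passed the filter through LINC00862 alone.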

How the data were processed

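Poly(A) RNA libraries of 3 NC and 3 LINC00862 samples of HCCLM3 cells were sequenced as 150-base read pairs, and the strand was marked with dUTP. The deposited table pairs, for each gene in each library, a raw count from the authors with their FPKM value, in which fragments are divided by transcript length and by library depth. The submitters' processing notes name the build hg38 and list cutadapt 1.9, HISAT2 2.0.4, UMI-tools, StringTie 1.3.4d, DESeq2 and edgeR without giving their roles. Whether counting used the strand or collapsed molecular identifiers is not stated. In every library, genes with 4 counts were 2.08 to 2.48 times as frequent as the mean of genes with 3 and 5, and the counts were used as deposited.

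The whole count table was fitted in edgeR 4.0.16 (R 4.3.3). After filterByExpr and TMM scaling, LINC00862 was set against NC with the quasi-likelihood test, adjusted by Benjamini-Hochberg over all 20741 tested genes, with a threshold of 0.05. Every adjusted p printed comes from this fit unless another tool is named. Standard errors were derived from the test statistic. With 3 libraries against 3, the smallest two-sided p of an exact permutation test is 0.1. The procedure was run on simulated data in which few genes changed, so that run does not check it where most genes differ. Nothing says that the libraries came from separate cultures, so p-values measure only the spread between these libraries, which may be technical. No pair of libraries agreed within sampling noise.

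The genes and lists were chosen with earlier results of these data known. Genes with a mean of at least 1 FPKM in a group were named, with the value in every library for those called with at least a 2-fold difference or sharing a role with such a gene. From the lists, up to 5 genes a direction with at least 1 FPKM and the largest log2 fold changes were named, and CTNNB1. The values of 2 genes that this rule names are not reported here. All 58 identifiers are in GENCODE 29 on the same chromosome and strand, 9 with the same start and end. Alternatives were DESeq2 1.42.0, upper quartile scaling, library size only, every gene with at least 1 count, a replicate block, leaving out each library, limma-trend (limma 3.58.1) on log2(FPKM + 1) and log2(FPKM + 0.1), an adjusted p under 0.01, and an added 2-fold limit. Python 3.11.15 with pandas 2.3.3 and matplotlib 3.10.9 made the tables and figures.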

Additional observations from a re-analysis of the deposited data

How the results depend on the processing

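The number of Wnt genes called, 37, ran from 33 to 39 over the 15 alternatives, and 38 of the 45 tested genes kept their direction and their side of the threshold under all 14 fits and limits run on single genes. For the other pathway genes, the count was 25 with an added 2-fold limit, against 38. Reversals were limited to 3 genes with log2 fold changes near 0 and no call in any fit. WNT2B was 0.19 with upper quartile scaling, 0.024 in DESeq2 and -0.38 to 0.19 over the fits that left out 1 library. ZNRF3 was 0.21 with upper quartile scaling, 0.00079 with a replicate block, 0.044 in DESeq2 and -0.098 to 0.048 over those fits. LRP6 ran from -0.42 to 0.11 over them. The cause was not tested. The same replicate numbers did not pair the libraries (correlations of deviations between same-numbered libraries of -0.021, -0.019 and -0.004), and with a replicate block 36 genes were called, 21 higher and 15 lower. The median over all genes was 0.11 with TMM, 0.32 with upper quartile scaling, -0.05 with library size only and 0.16 in DESeq2, a shift that all log2 fold changes share. The 13 genes below the filter had too few counts for a fold.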
